A study of Mus musculus with 12 samples.

Results

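Brefeldin A (BFA) was set against its solvent DMSO in hypoxic mouse glioma-model cells. The comparison held every non-control transcript cluster of the array, 22206 in all for 19505 named genes, on the 3 arrays of hypoxia with BFA and the 3 arrays of hypoxia with DMSO, 6 of the 12 arrays of the series. A transcript cluster is the set of probes that stands for 1 transcript unit on the Clarion S mouse array. All groups were cultures of the S100β-v-erbB/p53-/- TSC1 cell, of the FVB-NJ strain, grown in DMEM F-12 with B27, so the v-erbB oncogene under the S100β promoter and the loss of p53 were shared by treated and control cells. The labels give 1 culture name, TSC1, for every sample and speak of 3 independent cultures. The groups were hypoxia with DMSO, hypoxia with BFA, hypoxia with EHT-1864 (1 µM) and normoxia with DMSO, each for 16 h and with 3 arrays. The labels disagree on the BFA dose, with 1 µM in the protocol but 0.1 µM in the title, and they do not give the oxygen level. No transcript cluster was named Trp53 here and the oncogene was not looked for, so the genotype was not checked on the arrays.

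BFA is a fungal lactone that traps ARF GTPases on their Golgi exchange factors, so that the COPI coat falls off Golgi membranes, the Golgi cisternae flow back into the endoplasmic reticulum (ER) and secretion stops. Cells answer a loaded ER through the unfolded protein response, in which the sensors IRE1 (Ern1), PERK (Eif2ak3) and ATF6 raise chaperones, degradation factors and the integrated stress response factor ATF4. A separate response to Golgi damage runs through transcription factors of the CREB3 family, which are cut and released when Golgi proteases reach the ER. EHT-1864, an inhibitor of RAC GTPases, does not share this target, and its arrays serve here as a second treated group.

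Values are log2 signals, and "±" after a log2 difference (BFA minus DMSO, unless EHT-1864 is named) gives its standard error from limma (n = 3 arrays a group). A gene is said to rise or fall where its Benjamini-Hochberg adjusted p was under 0.05 over all 22206 transcript clusters. With this rule 26.1% of the transcript clusters rose and 24.6% fell, 50.7% in either direction. The floor is the 95th percentile of the neg control features of an array. Of the 10432 transcript clusters above the floor on all 3 arrays of at least 1 of the 2 groups, 16.3% rose and 46.1% fell, with a median log2 difference of −0.30, and these shares are the background for the counts of gene groups below. The counts of gene groups take in members under the floor on all 6 arrays, where the signal is mostly background. Of the 11032 such transcript clusters, 3851 rose and 475 fell. A gene under the floor on all 3 arrays of 1 group is given as a bound, "at least N-fold", from the mean of the brighter group and a detection limit of the arrays of the dimmer one, the higher of the floor and the gene's own value.

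The arrays differed between the groups in their range. The SD of all values on an array was 2.22 to 2.32 with BFA and 2.50 to 2.52 with DMSO, and the floor lay at 6.37 to 6.65 with BFA and 5.60 to 5.64 with DMSO. The hybridization spikes, transcripts added to the hybridization mix, read 10.82 to 11.06 with BFA and 9.69 to 9.82 with DMSO. Transcript clusters under a log2 value of 4 with DMSO had a median difference of 0.35, and those over 10 had one of −0.36. Of the transcript clusters above the floor on all 3 DMSO arrays, 2090 were above it on none of the 3 BFA arrays, against 21 the other way round. The part of this narrower range in the falls below was not tested, so each gene group is read against the background shares, and its value after a further quantile normalization of the arrays is given where that changed the count by more than 1.5 times or turned the median.

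**Figure D1:**
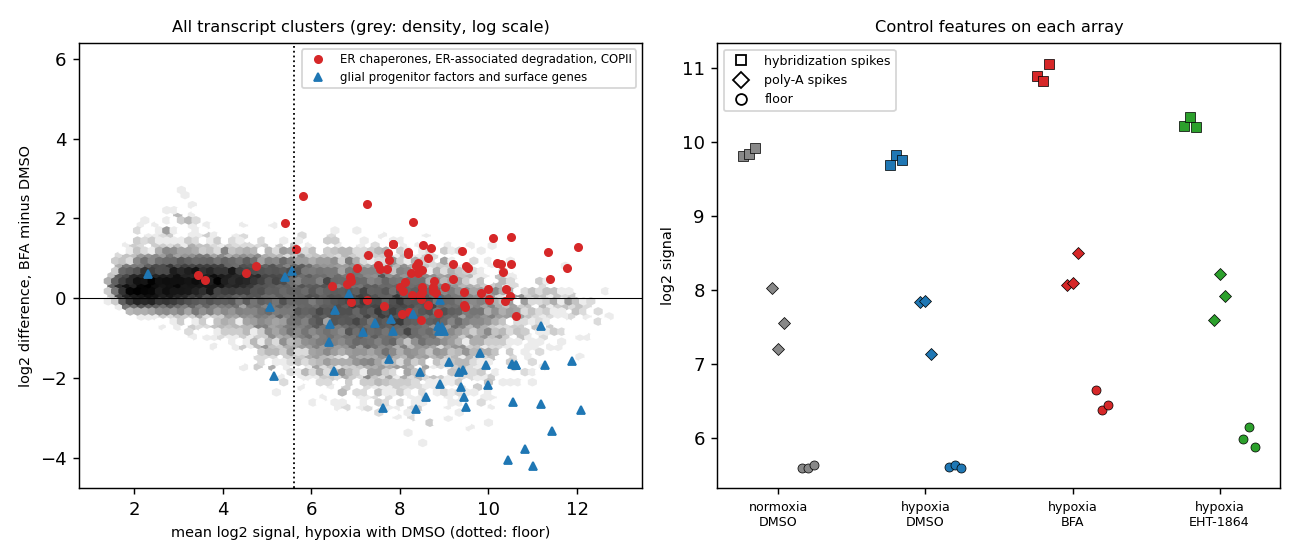
Left, the log2 difference (BFA minus DMSO) of all transcript clusters against their mean log2 signal with DMSO, with 3 ER and COPII lists as red circles and 2 glial progenitor lists as blue triangles. Right, the mean hybridization spike, poly-A spike and floor signals of each array. The dim clusters at the left lie above 0 and the bright ones below, most of the ER genes lie above this trend and most of the progenitor genes below it, and the spikes of the 3 BFA arrays are the highest of the 4 groups for the hybridization controls.

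Many genes of the ER stress response carry short promoter elements near their start, and windows of 250 bases upstream of 8 genes that the results below turn on are printed here from RefSeq (GRCm38.p6), with the motif in capitals. The first 3 hold the ER stress element (ERSE, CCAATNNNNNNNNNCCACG on either strand), at which ATF6 and NF-Y are known to act. In Derl3 the capitals also mark the Golgi stress element (GASE, ACGTGGC).
Hspa5, chr2:34771840-34772089, plus strand: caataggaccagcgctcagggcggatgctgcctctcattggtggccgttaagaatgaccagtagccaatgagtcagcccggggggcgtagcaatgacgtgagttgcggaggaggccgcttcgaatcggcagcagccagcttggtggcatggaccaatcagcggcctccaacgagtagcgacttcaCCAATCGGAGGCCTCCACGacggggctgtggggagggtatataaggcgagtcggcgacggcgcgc
Creld2, chr15:88819396-88819645, plus strand: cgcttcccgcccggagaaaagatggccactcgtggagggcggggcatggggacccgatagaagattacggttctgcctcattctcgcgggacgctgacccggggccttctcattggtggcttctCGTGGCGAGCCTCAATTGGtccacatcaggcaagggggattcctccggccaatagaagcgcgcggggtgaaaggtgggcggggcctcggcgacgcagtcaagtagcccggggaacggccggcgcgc
Derl3, chr10:75893148-75893397, plus strand: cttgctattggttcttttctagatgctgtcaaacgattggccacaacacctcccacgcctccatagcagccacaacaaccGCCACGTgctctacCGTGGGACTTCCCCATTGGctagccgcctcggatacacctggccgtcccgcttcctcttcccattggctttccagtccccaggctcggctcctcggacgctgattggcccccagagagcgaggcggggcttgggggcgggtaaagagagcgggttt
The ERSE began 65 bases before the gene start in Hspa5, 126 bases before it in Creld2 and 156 bases before it in Derl3.

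The window of Herpud1 holds the related element ERSE-II (ATTGGNCCACG) and the C/EBP-ATF response element (CARE, TGATGCAA) at which ATF4 acts. Herpud1 also holds a GASE, which overlaps the ERSE-II and whose last base is not in capitals. The window of the hormone gene Fgf21 holds a CARE. Kdelr3 and Gbf1, which serve transport between ER and Golgi, hold the core of the unfolded protein response element (UPRE core, TGACGTGG), which in Kdelr3 overlaps a GASE. The sterol enzyme gene Hmgcs1 holds a sterol regulatory element (SRE, TCACNCCAC).
Herpud1, chr8:94386179-94386428, plus strand: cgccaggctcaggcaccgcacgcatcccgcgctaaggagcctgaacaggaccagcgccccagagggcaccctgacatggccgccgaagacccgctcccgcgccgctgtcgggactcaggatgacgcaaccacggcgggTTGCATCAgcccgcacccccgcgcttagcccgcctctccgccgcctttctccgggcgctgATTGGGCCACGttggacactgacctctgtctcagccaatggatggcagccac
Fgf21, chr7:45615491-45615740, minus strand: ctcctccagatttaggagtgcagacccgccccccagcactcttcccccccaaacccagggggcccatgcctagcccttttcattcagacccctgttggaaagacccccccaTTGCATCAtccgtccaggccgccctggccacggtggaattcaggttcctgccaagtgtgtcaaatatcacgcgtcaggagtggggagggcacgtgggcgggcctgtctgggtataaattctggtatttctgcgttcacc
Kdelr3, chr15:79516158-79516407, plus strand: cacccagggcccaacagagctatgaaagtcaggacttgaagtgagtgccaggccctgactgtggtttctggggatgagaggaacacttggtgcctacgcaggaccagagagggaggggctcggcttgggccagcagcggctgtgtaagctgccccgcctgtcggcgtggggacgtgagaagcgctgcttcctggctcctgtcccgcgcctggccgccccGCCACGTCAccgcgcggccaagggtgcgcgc
Gbf1, chr19:46152308-46152557, plus strand: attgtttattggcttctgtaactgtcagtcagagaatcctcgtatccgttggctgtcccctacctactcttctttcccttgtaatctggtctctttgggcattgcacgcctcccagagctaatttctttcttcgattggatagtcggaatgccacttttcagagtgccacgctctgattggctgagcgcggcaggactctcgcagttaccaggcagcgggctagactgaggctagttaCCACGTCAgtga
Hmgcs1, chr13:119690101-119690350, plus strand: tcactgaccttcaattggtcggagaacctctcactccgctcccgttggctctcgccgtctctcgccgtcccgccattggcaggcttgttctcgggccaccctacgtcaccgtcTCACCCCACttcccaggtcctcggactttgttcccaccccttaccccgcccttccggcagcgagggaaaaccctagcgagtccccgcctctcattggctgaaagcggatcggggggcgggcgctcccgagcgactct

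Over the 300-base windows (250 before and 50 after the start) of the 15691 measured genes that had one, the ERSE was found in 27, or 0.172%, and among the 217 genes that rose at least 2-fold and lay above the floor it was found in 7, or 3.23%. None of the 1533 genes that fell at least 2-fold held it. The UPRE core was found in 0.726% of all windows and in 10 of the 217, or 4.61%, the CARE in 0.835% and in 7, or 3.23%, and the GASE in 3.14% and in 25, or 11.5%. The E2F site GCGGGAA did not stand out in this way among the genes that fell at least 2-fold. It was in 9.72% of their windows, against 9.26% for all genes above the floor and 6.27% for all windows. Of 31 DNA replication genes with a window, 12 held it, or 38.7%. Of 27 mitosis genes with a window none held it, and 18, or 66.7%, held the CHR motif (TTTGAA). The CHR was found in 11.9% of the windows of genes above the floor and in 12.8% of those that fell at least 2-fold. Over the genes above the floor the shares were 0.180% for the ERSE, 0.874% for the UPRE core, 0.450% for the CARE and 4.32% for the GASE. The SRE was found in 1.19% of all windows and in 1.07% of those of genes above the floor. Among the genes that rose at least 2-fold its share was 1.84%, and among those that fell at least 2-fold it was 1.24%. Of 13 cholesterol synthesis genes with a window, 1 held an SRE, and this was Hmgcs1. Of 31 ER chaperone genes with a window, 8 held an ERSE (Hspa5, Calr, Hsp90b1, Canx, Pdia6, Ero1b, Dnajc3 and Creld2). Canx was the 1 of these that did not pass, at 0.24 ± 0.11, and it passed as higher after quantile normalization. These matches describe letters in the windows and no binding was measured.

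The transcription factors of the stress response rose with BFA. Atf3, a factor induced by many stresses, read 6.65, 6.74 and 6.61 on the DMSO arrays and 9.67, 9.88 and 9.65 on the BFA arrays, and rose by 3.07 ± 0.13 (adjusted p = 5.22e-09). Ddit3, which encodes CHOP, read 9.14, 8.77 and 8.77 with DMSO and 11.30, 11.46 and 11.39 with BFA, and a second transcript cluster of the gene gave a difference of 2.69. Every BFA value of both genes lay above every DMSO value. In normoxia Ddit3 read 7.41, 6.98 and 7.08, below every value in hypoxia with DMSO. The EHT-1864 arrays lay between DMSO and BFA at 10.66, 10.31 and 10.69, and BFA differed from EHT-1864 by 0.83 ± 0.16 (adjusted p = 0.00104).

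Of 20 measured sensors and stress factors, 12 rose, 3 fell and 5 did not pass, with a median of 0.73. All 3 sensors rose. Ern1 rose by 0.88 (SE 0.12), Eif2ak3 by 0.65 (SE 0.13) and Atf6 by 1.01 (SE 0.12). Xbp1, whose mRNA IRE1 splices, rose from 9.90, 9.59 and 9.67 to 10.24, 10.91 and 10.69, by 0.89 ± 0.16, and these arrays do not tell its spliced form from the unspliced one. Atf4 rose from 10.89, 11.11 and 10.96 to 12.06, 12.15 and 12.03, by 1.09 ± 0.12. Ppp1r15a (GADD34), the phosphatase subunit that ends the ATF4 response, rose by 2.01 ± 0.14, and Cebpb by 1.15 ± 0.19. The members that fell were the other eIF2α kinases, which answer heme loss, double-stranded RNA and amino acid loss: Eif2ak1 fell by 0.42 (SE 0.11, a call lost after quantile normalization), Eif2ak2 by 0.84 (SE 0.14) and Eif2ak4 by 0.95 (SE 0.24), with a difference of −0.57 when BFA array 1 was left out.

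The CREB3 family moved in both directions. Creb3, a member cut and released under BFA in other systems, read 9.75, 9.57 and 9.55 with DMSO and 10.95, 11.39 and 11.30 with BFA. It rose by 1.59 ± 0.13 (adjusted p = 8.85e-07). Creb3l2 read 9.62, 9.67 and 9.50 with DMSO and 8.18, 8.39 and 7.89 with BFA, and fell by 1.44 (SE 0.13). The groups did not overlap for either gene. Creb3l1 lay near the floor, above it on 3 of 3 DMSO arrays and 0 of 3 BFA arrays, and passed as lower close to the threshold (adjusted p = 0.0488), a call lost after quantile normalization and without DMSO array 1, 2 or 3 or BFA array 2 or 3, with an adjusted p of up to 0.213. Creb3l3 and Creb3l4 were under the floor on all 6 arrays. Creb3 read 9.74, 9.59 and 9.84 with EHT-1864, and BFA exceeded EHT-1864 by 1.49 ± 0.13 (adjusted p = 2.09e-06).

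Genes of folding in the ER lumen rose or did not pass, with 1 exception. Hspa5 (BiP), the HSP70 chaperone that binds the sensors at rest, read 12.01, 12.03 and 12.04 with DMSO and 13.24, 13.35 and 13.31 with BFA, and its 3 EHT-1864 arrays read 11.36, 11.34 and 11.44, so that BFA lay above DMSO and EHT-1864 below it. Of 35 chaperones and disulfide isomerases, 18 rose, 1 fell and 16 did not pass (median 0.47, or 25 rises and 0 falls after quantile normalization). The co-chaperone gene Sdf2l1 rose by 1.33 (SE 0.12), the nucleotide exchange factor Hyou1 by 1.52 (SE 0.13) and the disulfide isomerase partner Creld2 by 1.90 (SE 0.11). Creld2 read 8.25, 8.26 and 8.39 with DMSO and 10.06, 10.33 and 10.21 with BFA. The oxidase Ero1b was at least 3.2-fold higher, since it was under the floor on all 3 DMSO arrays. Its paralog Ero1a, a hypoxia-induced oxidase, rose by 0.47 (SE 0.14). The sulfhydryl oxidase Qsox1, a Golgi enzyme, was the member that fell, by 0.54 (SE 0.13, a call lost after quantile normalization). Against EHT-1864, 27 of the 35 were higher with BFA and 1 lower, where 16.9% of all transcript clusters were higher and 19.6% lower. These 2 shares take in dim clusters, and the shares over clusters above the floor were not computed for this comparison.

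Genes of degradation and import at the ER rose in part as well. Derl3, a channel of ER-associated degradation (ERAD), read 5.70, 5.76 and 6.0 with DMSO and 8.17, 8.43 and 8.54 with BFA, and rose by 2.56 ± 0.13 (adjusted p = 1.37e-08). Of 25 ERAD genes, 14 rose, 1 (2 without BFA array 2) fell and 10 did not pass (median 0.43, or 18 rises and 0 falls after quantile normalization), among them the co-chaperone Dnajb9, which rose by 2.35 (SE 0.12), Herpud1, by 1.55 (SE 0.14), and the VCP receptor Selenos, by 1.37 (SE 0.11). Nploc4, a cofactor of the VCP segregase that also works outside the ER, fell by 0.45 (SE 0.12, a call lost after quantile normalization). Of 25 genes of the translocon, signal peptidase and signal recognition particle, 14 rose and 2 fell (median 0.41, or 20 up and 1 down after quantile normalization), with both subunits of the SRP receptor up, Srpr by 1.18 (SE 0.13) and Srprb by 1.15 (SE 0.13). Sec61a2, the minor form of the channel subunit, fell by 1.11 (SE 0.19).

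Of 35 genes of N-glycosylation in the ER, 13 rose, 4 fell and 18 did not pass (median 0.23, or 18 rises and 2 falls after quantile normalization). The steepest rises were in the hexosamine pathway, which makes the sugar donor UDP-GlcNAc and is a known XBP1 target. Gnpnat1, its acetyltransferase, read 7.09, 7.32 and 7.14 with DMSO and 8.73, 8.85 and 8.49 with BFA, and rose by 1.51 ± 0.17. The mutase Pgm3 rose by 1.04 (SE 0.15) and the pyrophosphorylase Uap1 by 0.87 (SE 0.15). The catalytic subunit Stt3a of the oligosaccharyltransferase rose by 0.80 (SE 0.10) while its alternative Stt3b fell by 0.45 (SE 0.10, a call lost after quantile normalization). The glucosyltransferase Alg6 fell by 0.85 (SE 0.19), and Alg13 was at least 1.3-fold lower.

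The calcium genes of the ER moved in both directions. The pump Atp2a3 read 6.01, 6.21 and 6.18 with DMSO and 7.46, 8.42 and 7.48 with BFA, and rose by 1.66 ± 0.21, and the leak channel Tmco1 rose by 0.60 (SE 0.12). Of 17 members 5 rose and 6 fell (median 0.12, or 8 rises and 5 falls after quantile normalization). Store-operated entry genes were among the falls: the sensor Stim1 fell by 1.05 (SE 0.18) and its channel Orai1 by 1.43 (SE 0.18), with Stim1 detected over the floor on 1 and Orai1 on 2 of the BFA arrays. The release channel Itpr2 fell by 1.19 (SE 0.17).

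The coats that carry cargo out of the ER rose. Of 19 COPII genes, 14 rose, none (1 without BFA array 1) fell and 5 did not pass (median 0.76), and 2 of those that rose, Sec16b and Sec31b, were under the floor on all 6 arrays. Sec24d, a cargo adaptor subunit, read 8.30, 8.16 and 8.13 with DMSO and 9.57, 9.28 and 9.20 with BFA, and rose by 1.15 ± 0.15. Mia3 (TANGO1), which loads collagen into COPII carriers, rose by 1.26 (SE 0.13), the inner coat subunit Sec23a by 1.11 (SE 0.12) and the exit-site scaffold Sec16a by 1.23 (SE 0.20). Among the paralogs of the cargo adaptor, Sec24a rose by 1.0 (SE 0.12), whereas Sec24c at −0.34 ± 0.15 did not pass and Sec24b lay closer to 0. Both Sar1 GTPases rose, Sar1a by 0.86 (SE 0.10) and Sar1b by 0.76 (SE 0.12). Against EHT-1864, 15 members were higher with BFA and none lower.

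The COPI coat, which BFA strips from the Golgi, rose in part. Of 9 coatomer genes 5 rose and 1 (0 without DMSO array 2 or 3 or BFA array 1) fell (median 0.46, or 7 rises and 0 falls after quantile normalization). Copb1 rose by 0.97 (SE 0.11), Copb2 by 0.83 (SE 0.12), Copa by 0.80 (SE 0.14), Copz2 by 0.73 (SE 0.11) and Cope by 0.46 (SE 0.11). Copg2 fell by 0.49 (SE 0.17, a call lost after quantile normalization and without DMSO array 2 or 3 or BFA array 1, with an adjusted p of up to 0.079), and its paralog Copg1 differed by 0.30 ± 0.14 (adjusted p = 0.0863).

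Among the ARF GTPases, the switch proteins that BFA locks, Arf4 stood apart. Arf4 read 10.56, 10.64 and 10.62 with DMSO and 11.49, 11.68 and 11.70 with BFA, and rose by 1.02 ± 0.11 (adjusted p = 8.61e-06). Arf1, the form that recruits COPI, read 10.90, 11.02 and 11.04 with DMSO and 11.10, 11.24 and 11.21 with BFA, and differed by 0.19 ± 0.11 (95% interval −0.04 to 0.43, adjusted p = 0.147). Arf2, Arf3 and Arf5 did not pass either, with Arf5 at 0.27 ± 0.11. Arl1, an ARF-like GTPase that brings golgins to the trans-Golgi, rose by 0.94 ± 0.10, Arfrp1 rose by 0.45 (SE 0.11), and the plasma membrane form Arf6 fell by 0.51 (SE 0.13, a call lost after quantile normalization). After quantile normalization 7 of the 8 members rose and none fell, so the calls for Arf1 and its relatives depend on the scaling.

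The exchange factors had no common direction. Of 16 measured, 5 (3 without DMSO array 1 or 3 or BFA array 2) rose, 4 fell and 7 did not pass (median 0.17). Of the 16, 6 were under the floor on all 6 arrays. Psd4 and Iqsec3 were among the rises, by 0.78 and 0.54. Gbf1, the cis-Golgi exchange factor and a direct target of BFA, read 8.68, 8.48 and 8.43 with DMSO and 9.76, 9.97 and 9.94 with BFA, and rose by 1.36 ± 0.13 (adjusted p = 3.15e-06). Arfgef1 and Arfgef2, the BFA-sensitive factors of the trans-Golgi, differed by 0.07 ± 0.17 and 0.26 ± 0.15 and did not pass, while their relative Arfgef3 was at least 2.44-fold higher. Among the cytohesins, which act at the plasma membrane and resist BFA, Cyth3 fell by 1.41 (SE 0.30) and Cyth1 was at least 1.25-fold lower. The GTPase-activating proteins of the Golgi, Arfgap1 and Arfgap3, rose by 0.69 (SE 0.11) and by 0.65 (SE 0.17), whereas the surface and endosomal members Asap1 and Smap2 fell by 0.87 (SE 0.15) and by 1.06 (SE 0.14). Of the 20 GTPase-activating proteins 3 rose and 6 fell, or 3 and 3 after quantile normalization.

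**Figure D2:**
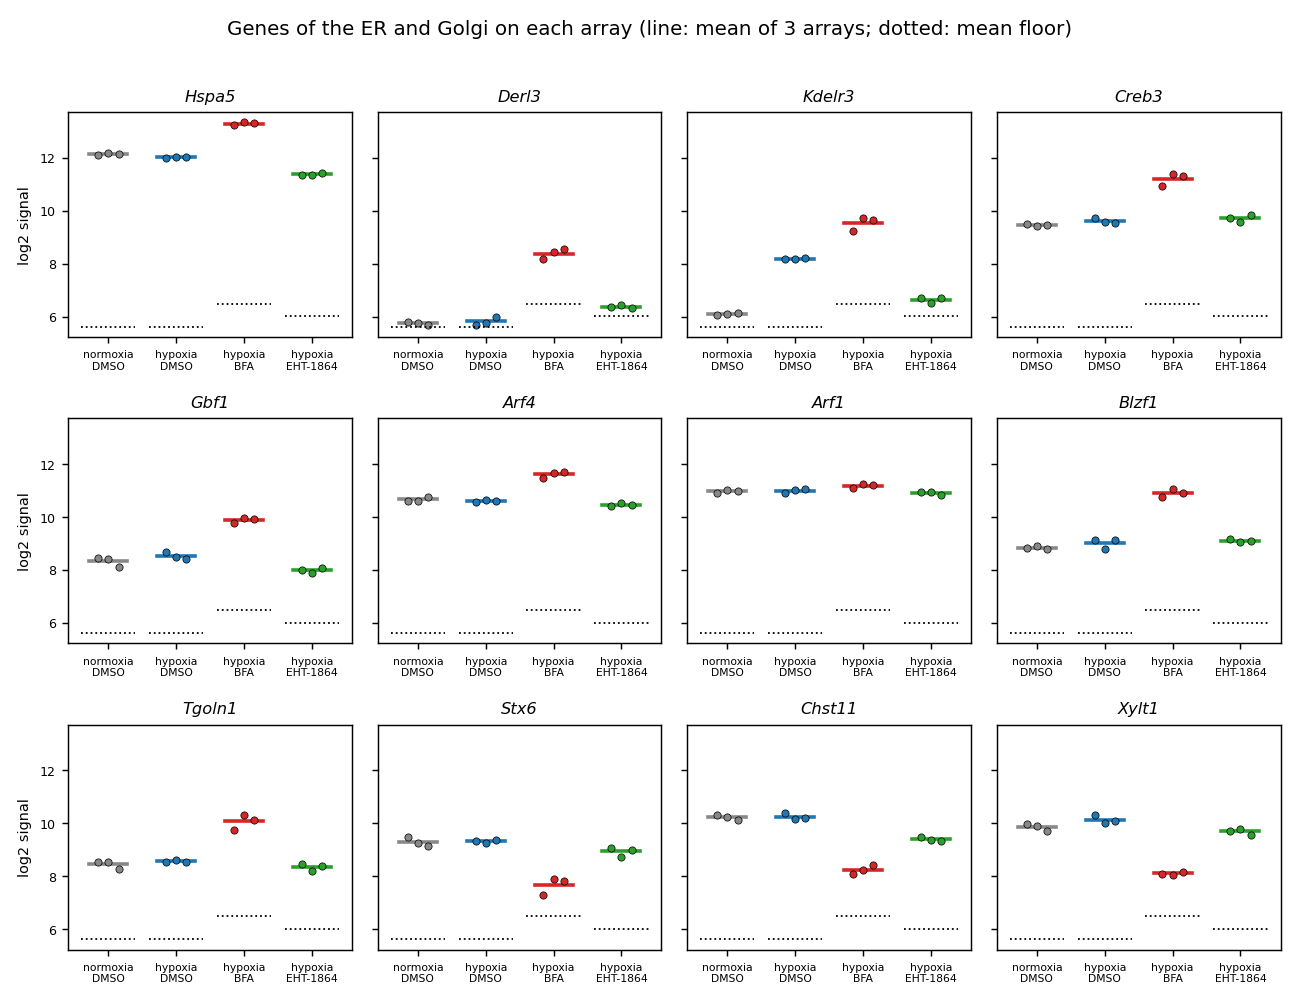
Log2 signal of 12 genes of the ER and Golgi on each of the 12 arrays, by group, with the mean of 3 arrays as a line and the mean floor of the group dotted. Hspa5, Derl3, Kdelr3, Creb3, Gbf1, Arf4, Blzf1 and Tgoln1 are highest on the 3 BFA arrays, Arf1 is nearly level, and Stx6, Chst11 and Xylt1 are lowest there.

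The receptors that return escaped chaperones to the ER rose. Kdelr3, one of the KDEL receptors, read 6.07, 6.09 and 6.13 in normoxia, 8.16, 8.16 and 8.22 in hypoxia with DMSO and 9.24, 9.74 and 9.64 with BFA, and BFA raised it by 1.36 ± 0.13 over DMSO. It read 6.69, 6.51 and 6.70 with EHT-1864, close to the normoxic level, and BFA exceeded EHT-1864 by 2.91 ± 0.13 (adjusted p = 1.84e-08). Kdelr2 rose by 0.65 (SE 0.10). Of 31 KDEL and cargo receptors, 14 rose and 5 fell (median 0.23, or 15 rises and 2 falls after quantile normalization). Members of the Yip family, small membrane proteins of the early pathway, were prominent, with Yipf2 up by 1.43 (SE 0.18), Yif1a by 1.33 (SE 0.16) and Yipf3 by 1.07 (SE 0.11), against a fall of 0.51 (SE 0.15, a call lost after quantile normalization) for Yipf1. The ER membrane protein Bcap29 was at least 1.19-fold lower.

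Fusion and tethering genes of the early pathway rose in part. Of 37 ER-Golgi SNAREs and tethers, 16 rose and 5 fell (median 0.33). The SNAREs Bet1l, Gosr1, Bet1 and Sec22b rose by 1.27 (SE 0.22), by 1.01 (SE 0.12), by 0.99 (SE 0.11) and by 0.97 (SE 0.10). The falls were in subunits of the TRAPP tethering complex, such as Trappc2 by 0.58 (SE 0.14, a call lost after quantile normalization) and Trappc13 by 0.50 (SE 0.12, a call lost after quantile normalization), and in Bnip1, a SNARE of retrograde transport that was under the floor on the 3 BFA arrays. After quantile normalization 23 rose and 1 fell.

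The structural proteins of the Golgi and its enzymes moved in opposite directions. Of 22 golgins and Golgi structure genes, 14 rose, 3 fell and 5 did not pass (median 0.62). Of 60 Golgi glycosyltransferases and sulfotransferases, 4 (2 without DMSO array 1, 2 or 3 or BFA array 3) rose, 35 fell and 21 did not pass (median −0.61), which is a share of falls above the 46.1% of all transcript clusters over the floor. After quantile normalization 11 rose and 30 fell (median −0.36), and the golgins gave 16 and 2 (median 0.91).

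Blzf1 (golgin-45), a Golgi stacking factor, read 9.15, 8.77 and 9.15 with DMSO and 10.76, 11.08 and 10.89 with BFA, and rose by 1.89 ± 0.13 (adjusted p = 1.92e-07). The trans-Golgi golgin Gcc1 rose by 1.37 (SE 0.22), Golga3 by 1.17 (SE 0.17) and the lipid-binding Golph3l by 1.10 (SE 0.15). The exceptions were integral membrane proteins and a scaffold: the calcium pump Atp2c1 fell by 1.69 (SE 0.27), with 1 of 3 BFA arrays above the floor, Golm1 (GP73) by 1.39 (SE 0.18) and the scaffold Gopc by 0.42 (SE 0.14, a call lost after quantile normalization and without DMSO array 1, 2 or 3 or BFA array 1 or 2, with an adjusted p of up to 0.0887).

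The steepest falls among the Golgi enzymes lay in chondroitin sulfate synthesis. Chst15 was at least 2.15-fold lower and Chst3 at least 2.78-fold lower, and both add sulfate to chondroitin. Chst11, which sulfates the same chain at another position, read 10.40, 10.15 and 10.19 with DMSO and 8.07, 8.24 and 8.42 with BFA, and fell by 2.01 (SE 0.12). Xylt1, which starts the glycosaminoglycan chain on the core protein, read 10.31, 9.998 and 10.09 with DMSO and 8.08, 8.06 and 8.17 with BFA, and fell by 2.03 (SE 0.13) (adjusted p = 7.36e-08). The groups did not overlap for any of these 4 genes. Falls were also seen for the α2,8-sialyltransferase St8sia1, at least 2.13-fold, and the core fucosyltransferase Fut8, at least 1.48-fold, both named here after their values were seen. The 4 rises were small: Csgalnact2 by 0.63 (SE 0.15), St3gal3 by 0.50 (SE 0.11), B4galt7 by 0.45 (SE 0.16, a call lost without DMSO array 1, 2 or 3 or BFA array 3, with an adjusted p of up to 0.132) and Mgat1 by 0.36 (SE 0.14, a call lost without DMSO array 1, 2 or 3 or BFA array 2 or 3, with an adjusted p of up to 0.161). Against EHT-1864, 18 of the enzymes were higher with BFA and 22 lower, with a median difference of −0.03, so their median lay close to that with EHT-1864.

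**Figure D3:**
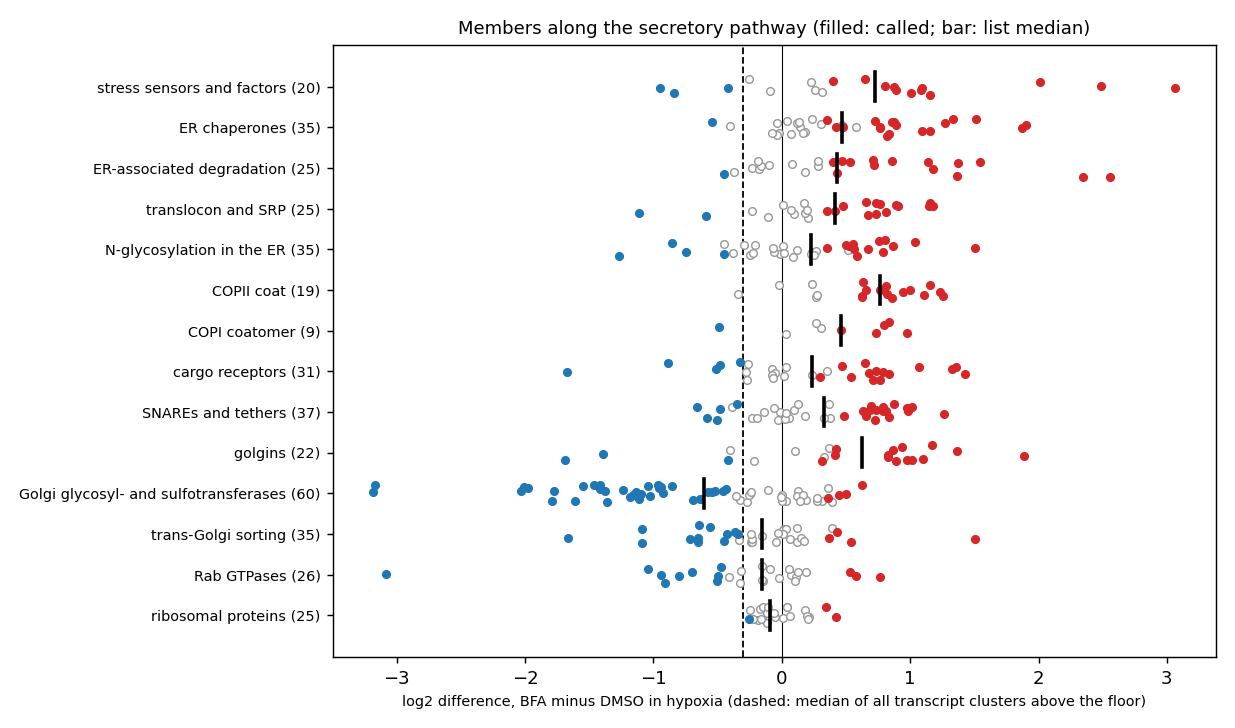
Log2 difference (BFA minus DMSO) of each measured member of 14 gene lists, ordered along the secretory pathway with ribosomal proteins as the last row; red points rose, blue points fell, open points did not pass, and the black bar is the list median. The medians lie right of the dashed background median of −0.30 from the stress factors down to the golgins, and that of the Golgi enzymes lies left of it at −0.61.

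Genes of trans-Golgi sorting had no direction that held under both scalings. Of 35 genes of trans-Golgi sorting, clathrin adaptors and retromer, 4 rose and 12 fell (median −0.16), and after quantile normalization 10 rose and 5 fell (median 0.04). Tgoln1 (TGN38), the marker protein of the trans-Golgi network, read 8.54, 8.62 and 8.53 with DMSO and 9.76, 10.32 and 10.14 with BFA, and rose by 1.51 ± 0.15. Stx6, a SNARE of the same compartment, read 9.35, 9.24 and 9.39 with DMSO and 7.29, 7.88 and 7.82 with BFA, and fell by 1.66 (SE 0.17). The adaptor subunit Ap1s2 was at least 1.52-fold lower. Of 26 Rab GTPases 3 rose and 9 fell, or 7 and 7 after quantile normalization, with the 2 forms of Rab33 on opposite sides: Rab33b, a Golgi form, rose by 0.58 (SE 0.12) and Rab33a was at least 2.5-fold lower.

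The outputs of ATF4 rose in part, and were led by a secreted hormone. Fgf21, which encodes a hormone of nutrient and mitochondrial stress, read 5.26, 5.66 and 5.44 with DMSO, 11.18, 11.46 and 11.36 with BFA and 4.41, 4.26 and 5.22 with EHT-1864. Its level with DMSO was near the floor, with 1 of 3 arrays above it, so the difference of 5.88 ± 0.25 is a measure against a dim control. Of 18 cytosolic tRNA synthetases 8 rose and 1 (0 without DMSO array 2 or 3 or BFA array 1 or 3 and 2 without BFA array 2) fell (median 0.28), with Wars up by 0.72 (SE 0.16), Cars by 0.72 (SE 0.15) and Tars by 0.61 (SE 0.11), and Kars, which fell by 0.31 (SE 0.11, a call lost after quantile normalization and without DMSO array 2 or 3 or BFA array 1 or 3, with an adjusted p of up to 0.0849). After quantile normalization 13 rose and 0 fell. The glutathione-degrading enzyme Chac1 rose by 1.37 (SE 0.21), the translation inhibitor Eif4ebp1 by 0.72 (SE 0.14) and the AP-1 repressor Jdp2 by 1.11 (SE 0.20), while the mTOR inhibitor Ddit4, a gene of both ATF4 and hypoxia, fell by 0.82 (SE 0.19).

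Of 25 amino acid transporters 5 (3 without DMSO array 1) rose and 11 fell (median −0.17). The cystine carrier Slc7a11 rose by 1.28 (SE 0.18) and the cationic amino acid carrier Slc7a3 by 1.49 (SE 0.17). Cth, which makes cysteine from cystathionine, read 6.26, 5.90 and 5.98 with DMSO and 7.54, 8.24 and 8.0 with BFA, and rose by 1.88 ± 0.26, with no overlap between the groups. The glutamate carrier Slc1a1 was at least 3.48-fold lower, and its glial relative Slc1a3 fell by 1.64 (SE 0.19), with 2 of 3 BFA arrays above the floor. In amino acid and one-carbon synthesis 6 of 17 genes rose and 3 fell, and the falls were in the folate enzymes Shmt1, at least 2.39-fold lower, and Mthfd1, at least 1.45-fold lower, and in the mitochondrial aminotransferase Got2, which fell by 1.44 (SE 0.11). The ATF4-linked counterparts Mthfd2 and Got1 moved the other way, up by 0.51 (SE 0.15) and by 0.63 (SE 0.16). Other members of the list did not pass, among them Asns at 0.02, Bcat2 at 0.01 and Aldh18a1 at 0.17.

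Of 30 proteasome subunits 5 (3 without DMSO array 1 or 2 or BFA array 2) rose and 8 (4 without DMSO array 2 or 3 and 5 without BFA array 3) fell (median −0.16), and after quantile normalization 9 rose and 2 fell with the median at 0.12, so the direction of this group depends on the scaling. Of 23 cytosolic heat shock proteins and chaperonin subunits 4 rose and 12 fell (median −0.44). The chaperonin subunit Cct3 fell by 0.99 (SE 0.13) and the small heat shock protein Cryab by 1.12 (SE 0.14), while Hspb8, a partner in chaperone-assisted autophagy, rose by 1.18 (SE 0.28). The inducible HSP70 genes Hspa1a and Hspa1b, near-identical copies whose probes may share targets, rose by 1.14 ± 0.15 and 0.69 ± 0.14 over DMSO. Both were lower with BFA than with EHT-1864, by −2.67 ± 0.15 and −3.16 ± 0.14, where the EHT-1864 arrays read 11.30, 11.17 and 10.73 for Hspa1a.

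Of 23 NRF2-linked antioxidant genes 3 rose and 12 fell (median −0.31, or 5 rises and 8 falls after quantile normalization). Hmox1, the heme oxygenase, read 9.77, 9.75 and 9.82 with DMSO and 11.72, 11.69 and 11.73 with BFA, and rose by 1.93 ± 0.13. The sulfiredoxin Srxn1 rose by 1.63 (SE 0.22), whereas Me1, the malic enzyme that makes NADPH, fell by 1.80 (SE 0.12), the glutathione conjugate exporter Abcc1 by 1.38 (SE 0.16) and thioredoxin, Txn1, by 0.75 (SE 0.11). The list thus did not move as 1 group.

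Lysosomal and autophagy genes rose in part. Of 32 autophagy genes 11 rose and 4 (2 without DMSO array 1 or 3 or BFA array 1) fell (median 0.19), or 19 and 1 after quantile normalization. Ccpg1, a receptor for autophagy of the ER, rose by 1.16 (SE 0.16), the lipid-transfer protein gene Atg2a by 1.14 (SE 0.18), the cargo receptor Sqstm1 (p62) by 0.95 (SE 0.10) and Gabarap by 0.77 (SE 0.11). Of 34 lysosomal genes 11 (7 without DMSO array 2) rose and 8 fell, or 17 and 6 after quantile normalization. The protease cathepsin L, Ctsl, read 8.07, 8.10 and 8.10 with DMSO and 10.16, 10.23 and 10.21 with BFA, and rose by 2.11 ± 0.14, while cathepsin B, Ctsb, fell by 1.02 (SE 0.14). The transcription factors of lysosomal genes Tfeb, Tfe3 and Mitf rose by 0.53 (SE 0.14), by 0.53 (SE 0.13) and by 0.73 (SE 0.14).

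Sterol synthesis fell at every measured step. Hmgcs1, which commits acetyl-CoA to sterols, read 11.39, 11.40 and 11.33 with DMSO and 8.89, 9.16 and 9.20 with BFA, and fell by 2.29 (SE 0.12) (adjusted p = 1.72e-08). All 16 cholesterol synthesis enzymes fell (median −1.12), and after quantile normalization 14 still fell and none rose. Nsdhl and Dhcr7, enzymes of the late pathway, fell by 2.36 (SE 0.13) and by 2.19 (SE 0.17), and Hsd17b7 was at least 3.36-fold lower. The smallest falls were in Ebp by 0.48 (SE 0.12, a call lost after quantile normalization), Lss by 0.56 (SE 0.16, a call lost after quantile normalization and without DMSO array 1, with an adjusted p of up to 0.0509) and Msmo1 by 0.59. Srebf2, which encodes the transcription factor SREBP2 that is cut in the Golgi, read 11.87, 11.82 and 11.78 with DMSO and 10.39, 10.67 and 10.58 with BFA, and fell by 1.27 (SE 0.11). Its escort Scap fell by 1.31 (SE 0.21) and its anchor Insig1 by 0.46 (SE 0.11, a call lost after quantile normalization). Oxysterol-binding protein Osbp, which works at contacts of ER and trans-Golgi, was an exception and rose by 0.68 (SE 0.12). Between the compounds, Hmgcs1 and Srebf2 were lower with BFA than with EHT-1864, by −1.14 ± 0.12 and −1.0 ± 0.11, and Insig1 differed by −0.04 ± 0.11 (adjusted p = 0.818).

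Of 16 genes of fatty acid synthesis none rose and 13 fell (median −0.80, or 1 up and 10 down after quantile normalization). The desaturase Fads2 read 10.92, 10.90 and 10.99 with DMSO and 8.76, 9.27 and 9.29 with BFA, and fell by 1.83 (SE 0.14). The elongases Elovl6 and Elovl7 fell by 1.84 (SE 0.12) and by at least 2.85-fold, the stearoyl-CoA desaturase Scd1 by 1.29 (SE 0.11) and the mitochondrial citrate carrier Slc25a1 by 1.30 (SE 0.13). Fasn, the synthase itself, differed by −0.34 ± 0.14 and did not pass (adjusted p = 0.0621), but it passed as lower without the dimmest 25% of clusters. In phospholipid synthesis 3 (1 without DMSO array 3) of 28 genes rose and 14 fell, or 4 and 7 after quantile normalization. Pcyt1b, 1 of the 2 forms of the rate-limiting enzyme of phosphatidylcholine synthesis, was at least 1.63-fold lower, while the other form, Pcyt1a, rose by 0.54.

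Cell cycle genes fell. Of 37 DNA replication genes none (1 without BFA array 1) rose and 29 fell (median −0.69), and of 33 mitosis genes none rose and 29 fell (median −1.0, or 2 rises and 26 falls after quantile normalization). Mcm6, a subunit of the replicative helicase, read 9.36, 9.17 and 9.28 with DMSO and 7.39, 7.32 and 7.07 with BFA, and fell by 2.01 (SE 0.13). The ribonucleotide reductase subunit Rrm2 was at least 3.54-fold lower and Rrm1 fell by 1.57 (SE 0.13). The cyclin Ccna2 fell by 1.83 (SE 0.13), the proliferation antigen gene Mki67 by 1.66 (SE 0.15) and the spindle motor Kif11 by 1.67 (SE 0.18), with 1 of 3 BFA arrays above the floor. The other 8 replication and 4 mitosis genes did not pass, Cdc45 and Ndc80 among them. Of 18 genes of homologous recombination and mismatch repair none rose and 10 fell (median −0.44), or 3 and 6 after quantile normalization.

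Of 25 genes of the cyclin D, CDK, RB and E2F axis none rose and 20 fell (median −0.89, or 2 rises and 14 falls after quantile normalization). Cdk4, a G1 kinase, read 11.70, 11.67 and 11.70 with DMSO and 10.57, 10.69 and 10.68 with BFA, and fell by 1.05 (SE 0.10). The pocket protein Rbl1 was at least 2.58-fold lower, the repressor E2f8 fell by 2.17 (SE 0.19) and the G1/S kinase Cdk2 by 1.62 (SE 0.16). The CDK inhibitor Cdkn1a (p21) also fell, by 0.89 (SE 0.14), and Cdkn2a by 1.53 (SE 0.12). Myc read 11.77, 11.89 and 11.86 with DMSO and 9.83, 10.10 and 10.07 with BFA, and fell by 1.85 (SE 0.11), and EHT-1864 left it at 11.78, 11.78 and 11.67. Of 12 members of the MYC network 3 rose and 5 fell. Max, the partner of MYC, rose by 0.45 (SE 0.13).

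Ribosomal protein genes lay close to 0, and genes of ribosome biogenesis fell at a share not far above the background. Of 25 ribosomal protein genes 2 (0 without DMSO array 3 or BFA array 1 and 1 without DMSO array 2 or BFA array 2 or 3) rose and 1 (0 without any 1 of the 6 arrays) fell, with a range from −0.26 to 0.42 and a median of −0.09, or 6 and none and a median of 0.08 after quantile normalization. Of 31 ribosome biogenesis genes 3 rose and 17 fell (median −0.54, or 6 rises and 13 falls after quantile normalization), among them the pseudouridine synthase Dkc1, at least 1.95-fold lower, Polr1b, a subunit of RNA polymerase I, at least 2.22-fold lower, and the fibrillarin gene Fbl, which fell by 0.83 (SE 0.11). Of 19 initiation factors 5 rose and 4 fell, or 11 and 3 after quantile normalization, with the cap-binding Eif4e down by 0.58 and Eif3a up by 0.55. Taf1a, a subunit of the RNA polymerase I initiation factor, went against the biogenesis list: it read 6.16, 5.93 and 5.98 with DMSO and 8.07, 8.33 and 8.22 with BFA, and rose by 2.18 ± 0.13. Of 34 respiratory chain genes 3 (1 without DMSO array 1, 2 or 3 or BFA array 3) rose and 11 (6 without DMSO array 2 or 3 and 7 without DMSO array 1 or BFA array 1) fell, and 9 and 2 after quantile normalization, with medians of −0.21 and 0.12, so that group has no direction that holds under both scalings.

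The outputs of MAP kinase signalling fell. Dusp6, a phosphatase of ERK and a sensitive readout of the pathway, read 9.75, 9.82 and 9.70 with DMSO and 6.87, 7.37 and 7.28 with BFA, and fell by 2.58 (SE 0.16) (adjusted p = 6.61e-08). Of 22 feedback genes 2 rose and 15 fell (median −0.85). The ETS factors Etv1 and Etv5 fell by 2.69 (SE 0.14) and by 1.97 (SE 0.12), and Spry4 and Phlda1 were at least 3.47-fold and 5.1-fold lower. The immediate early genes divided: of 26, 7 rose and 11 fell. Fos fell by 2.10 (SE 0.17), Egr2 by 2.37 (SE 0.17) and Nr4a1 by 1.54 (SE 0.12), while Klf4 rose by 1.23 (SE 0.16), Junb by 0.79 (SE 0.13) and Fosl1 by 0.78 (SE 0.18). After quantile normalization 13 rose and 8 fell.

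Receptors upstream fell too. Of 26 receptor tyrosine kinases 3 rose and 14 fell (median −0.62). Kit, the receptor for stem cell factor, read 9.06, 8.98 and 8.95 with DMSO and 5.48, 5.34 and 5.27 with BFA, and was at least 5.68-fold lower. Erbb3 was at least 4.31-fold lower, Fgfr3 fell by 2.27 (SE 0.16), Axl by 2.08 (SE 0.14) and Ntrk2 by 2.07 (SE 0.11). The insulin receptor, Insr, was the 1 receptor above the floor on all 6 arrays that rose, by 0.54 (SE 0.13). Egfr was under the floor on all 6 arrays. Of 23 growth factor ligands 7 rose and 8 fell (median 0.21, and −0.01 after quantile normalization), and all but 1 of those that rose, Mdk, were under the floor on all 6 arrays. The ligands Ptn (pleiotrophin) and Pdgfa fell by 2.13 (SE 0.12) and by 1.09 (SE 0.11).

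Developmental signalling of glial progenitors fell in the same samples. Of 22 Notch pathway genes 1 (2 without BFA array 1 or 2) rose and 13 fell (median −0.71, or 3 rises and 12 falls after quantile normalization). Dll3, a ligand-like inhibitor of Notch in glioma and neural progenitors, read 9.60, 9.78 and 9.77 with DMSO and 5.34, 5.53 and 5.60 with BFA, which put it under the floor on all 3 BFA arrays and at least 9.37-fold lower. The ligand Dll1 was at least 1.28-fold lower, and Jag1 and the target Hey1 fell by 1.96 (SE 0.13) and by 2.15 (SE 0.16). Of 23 BMP and SMAD genes 1 (2 without DMSO array 3 and 3 without BFA array 2) rose and 15 fell (median −0.78, or 2 rises and 14 falls after quantile normalization). The BMP target Id3 was at least 3.32-fold lower, Bmp7 at least 3.56-fold lower, and Id1 fell by 1.96 (SE 0.18). The BMP signal transducers Smad1 and Smad5 fell by 1.25 (SE 0.12) and by 1.01 (SE 0.13).

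The cells carried defining genes of oligodendrocyte progenitors, and these fell with BFA. Olig1 read 10.95, 11.02 and 11.08 with DMSO and 6.72, 6.74 and 6.96 with BFA, and fell by 4.21 (SE 0.16) (adjusted p = 1.87e-09). Olig2 read 11.43, 11.44 and 11.45 with DMSO and 7.98, 8.23 and 8.10 with BFA, and fell by 3.34 (SE 0.11). Sox10, a master factor of the oligodendrocyte lineage, read 10.34, 10.69 and 10.64 with DMSO and 8.10, 7.85 and 7.92 with BFA, and fell by 2.60 (SE 0.12). All 3 remained above the floor on the 3 BFA arrays and none of their groups overlapped. All 7 measured progenitor markers fell (median −2.74). Gpr17, a receptor of committed progenitors, fell by 4.05 (SE 0.14), and 2 of its 3 BFA values exceeded the floor. The proteoglycan genes Cspg4 (NG2) and Ptprz1 fell by 2.74 (SE 0.17) and by 2.64 (SE 0.12). In bulk samples fewer cells of a type and less RNA per cell cannot be told apart.

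Of 24 glial progenitor transcription factors 1 (0 without DMSO array 3 or BFA array 1) rose and 19 fell (median −1.66, or 2 rises and 18 falls after quantile normalization), and of 24 surface and matrix genes 2 (0 without DMSO array 3 and 1 without DMSO array 1 or BFA array 1, 2 or 3) rose and 21 fell (median −1.63, or 1 up and 20 down after quantile normalization). Sox2, a factor of neural stem cells, read 11.30, 11.25 and 11.30 with DMSO and 9.54, 9.53 and 9.79 with BFA, and fell by 1.66 (SE 0.13). Sox8 fell by 2.22 (SE 0.16) and Tcf7l2 by 2.18 (SE 0.12). Sox9 did not pass, at −0.39 ± 0.18. The syndecan Sdc3, a heparan sulfate proteoglycan, read 10.82, 10.83 and 10.84 with DMSO and 6.75, 7.13 and 7.25 with BFA, and fell by 3.79 (SE 0.13), and the fatty acid-binding protein Fabp7 fell by 2.81 (SE 0.11). Against EHT-1864, Olig2 was lower by −0.97 ± 0.11, Olig1 by −2.85 ± 0.16 and Sox10 by −2.10 ± 0.12, so for these 3 genes BFA lay below both other hypoxic groups.

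Markers of most other cell types were under the floor. Of the 9 microglial, 9 endothelial and 10 fibroblast and pericyte markers, 8, 8 and 8 were under the floor on all 6 arrays, the defining genes Ptprc, Pecam1 and Dcn among them. Of 10 neuronal markers 7 were under it, and Map2, which is also present in glial progenitors, fell by 1.92 (SE 0.12). Of 9 astrocyte markers 5 fell and none rose, and Gfap, Aqp4 and Gja1 were under the floor. Of 14 myelin genes 3 rose and 7 fell (median −0.54, or 1 up and 7 down after quantile normalization). Cnp fell by 3.13 (SE 0.17), and the myelin proteins Mbp and Cldn11 by 1.17 (SE 0.11) and by 1.55 (SE 0.11), while Mag, Mog and Mobp were under the floor on all 6 arrays.

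Detected integrins and detected matrix genes both fell at a share above the 46.1% of the detected transcript clusters. Of 9 detected integrins 8 fell and 1 rose, and of 21 detected matrix genes 14 fell and 4 rose. The counts over all measured members that follow take in dim genes, with 14 of the matrix genes under the floor on all 6 arrays. Of 14 integrins 3 (0 without DMSO array 1 or BFA array 2 and 1 without DMSO array 2 or 3 or BFA array 3) rose and 9 fell (median −1.04). Itgav, the αv subunit, read 10.53, 10.46 and 10.42 with DMSO and 9.08, 9.29 and 9.16 with BFA, and fell by 1.29 (SE 0.11), and Itga9 was at least 1.28-fold lower. Of 36 matrix genes 9 (5 without DMSO array 1) rose and 17 fell (median −0.33). Fbn2 (fibrillin-2) was at least 3.87-fold lower and Sparcl1 fell by 1.84 (SE 0.11), while the laminin and basement membrane genes Lama1 and Col4a1 rose by 1.05 (SE 0.22) and by 0.85 (SE 0.16). Of 26 metalloproteinases and inhibitors 3 rose and 16 fell, with Adam12 at least 8.32-fold lower, the inhibitor Timp4 at least 3.84-fold lower and the membrane-type Mmp16 lower by 2.44 (SE 0.11). Timp1, the stress-inducible inhibitor, rose by 0.71 (SE 0.16).

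Of 45 axon guidance genes 6 rose and 22 fell (median −0.40). The netrin receptor gene Unc5b read 6.69, 6.49 and 6.49 with DMSO and 7.74, 8.08 and 7.79 with BFA, and rose by 1.32 ± 0.14, and Sema3c rose by 1.63 (SE 0.27). The ligand netrin-1, Ntn1, was at least 2.34-fold lower, and the plexin Plxnb3 fell by 1.92 (SE 0.12). Of 6 measured sodium pump subunits none rose and 4 fell. Atp1b2, the glial β subunit, read 8.79, 8.88 and 8.67 with DMSO and 4.92, 4.58 and 4.97 with BFA, at least 4.88-fold lower, and Atp1b1 and Atp1b3 fell by 1.36 (SE 0.16) and by 1.07 (SE 0.14).

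The RAC pathway is the target of the other compound of the series, and its genes fell at a share not far above the background. Of 37 genes 2 rose and 22 fell (median −0.45), or 3 and 15 after quantile normalization. Bright clusters of all kinds fell often. The share was 51.5% at DMSO levels of 8 to 10 (median −0.37) and 54.2% over 10 (median −0.36). The part of signal level in the falls of the RAC list was not tested. For the count after quantile normalization no background of detected clusters is given here. Rac1 itself read 11.96, 11.91 and 12.01 with DMSO and 11.40, 11.58 and 11.49 with BFA, and fell by 0.47 (SE 0.11). Wasf1, a subunit of the WAVE complex that links RAC to actin, fell by 1.88 (SE 0.14), the ARP2/3 subunit Arpc1b by 1.58 (SE 0.11) and the RAC activator Dock1 by at least 1.63-fold. Rac1 with BFA was lower than with EHT-1864 by −0.49 ± 0.11 (adjusted p = 0.00299), and Wasf1 by −1.94 ± 0.14.

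**Figure D4:**
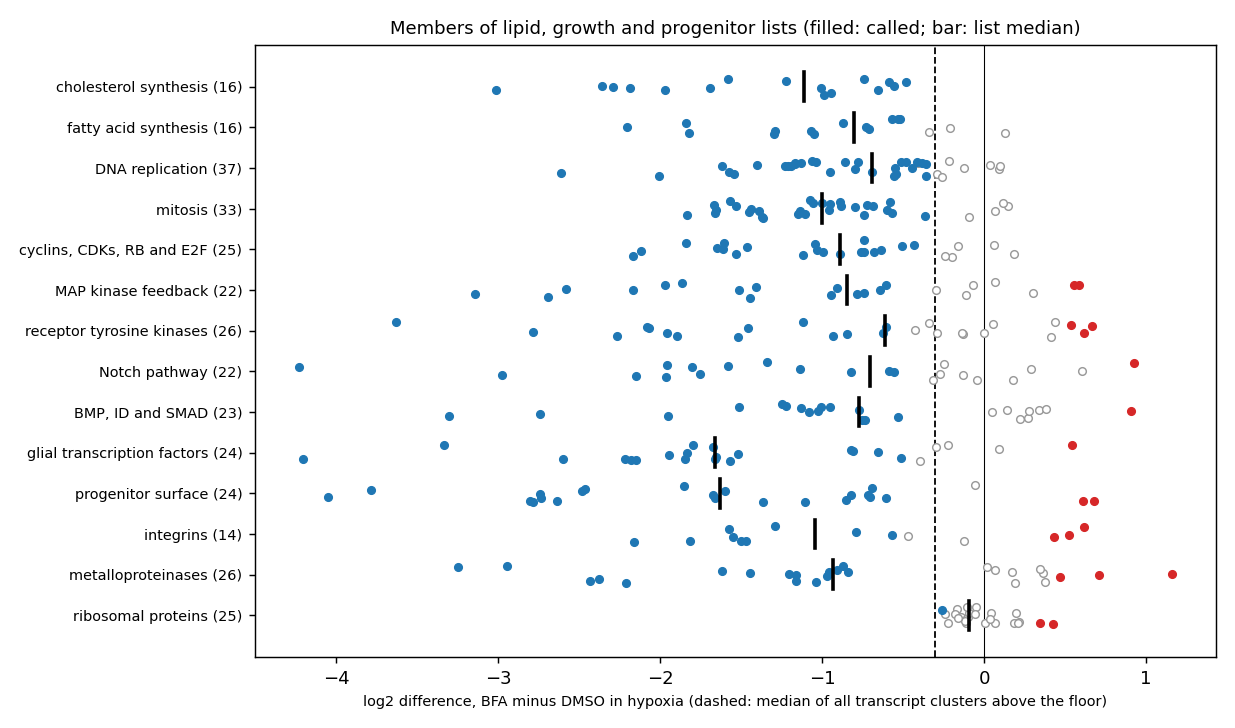
Log2 difference (BFA minus DMSO) of each measured member of 13 lists of lipid, growth and progenitor genes, with ribosomal proteins as the last row; blue points fell, red points rose, open points did not pass, and the black bar is the list median. All 13 medians lie left of the dashed background median of −0.30, with the glial transcription factors at −1.66 and the progenitor surface genes at −1.63 farthest from it, and the ribosomal proteins lie close to 0.

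The genes of the response to low oxygen fell with BFA but stayed above their normoxic level in most cases shown here. Vegfa, the main angiogenic factor, read 7.64, 7.34 and 7.21 in normoxia, 10.31, 10.68 and 10.48 in hypoxia with DMSO and 10.28, 10.11 and 10.01 in hypoxia with BFA, a difference of −0.36 ± 0.20 that did not pass (adjusted p = 0.152). Slc2a1 (GLUT1) read 9.15, 9.07 and 8.96 in normoxia, 11.71, 11.17 and 11.30 with DMSO and 10.99, 11.10 and 11.07 with BFA. It did not pass at −0.34 ± 0.14, but it passed as lower without the dimmest 25% of clusters. Egln3, the oxygen-sensing hydroxylase that is itself a HIF target, read 6.67, 6.96 and 6.50, 10.18, 9.89 and 10.05 and 7.77, 7.77 and 7.80 in the same order, and fell by 2.26 (SE 0.17). Every BFA value of these 3 genes lay above every normoxic value.

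Of 31 HIF targets outside glycolysis 4 rose and 20 fell (median −0.73), and of 16 glycolysis enzymes 1 (0 without DMSO array 1 or BFA array 2 or 3) rose and 13 fell (median −0.99). The procollagen hydroxylase P4ha2 fell by 1.26 (SE 0.15), the kinase Pdk1, which limits pyruvate oxidation, by 1.46 (SE 0.25), and the glucose transporter Slc2a3 by 1.48 (SE 0.18). Ppp1r3c, a glycogen-targeting subunit, was at least 3.37-fold lower, and Adm (adrenomedullin) passed as lower with 0 of 3 BFA arrays above the floor. Ero1a, both a HIF target and an ER oxidase, was an exception: it read 8.27, 8.31 and 8.40 in normoxia, 11.37, 11.40 and 11.39 with DMSO and 11.84, 11.86 and 11.89 with BFA. Among glycolysis enzymes Tpi1 fell by 1.81 (SE 0.15) and Pkm by 1.09 (SE 0.11), and Eno2, the neuronal enolase form, rose by 0.72 (SE 0.23, a call lost without DMSO array 1 or BFA array 2 or 3, with an adjusted p of up to 0.0766). Against EHT-1864, 21 HIF targets were higher with BFA and 4 lower, P4ha2 by 2.45 ± 0.15 and Pdk1 by 1.88 ± 0.25.

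**Figure D5:**
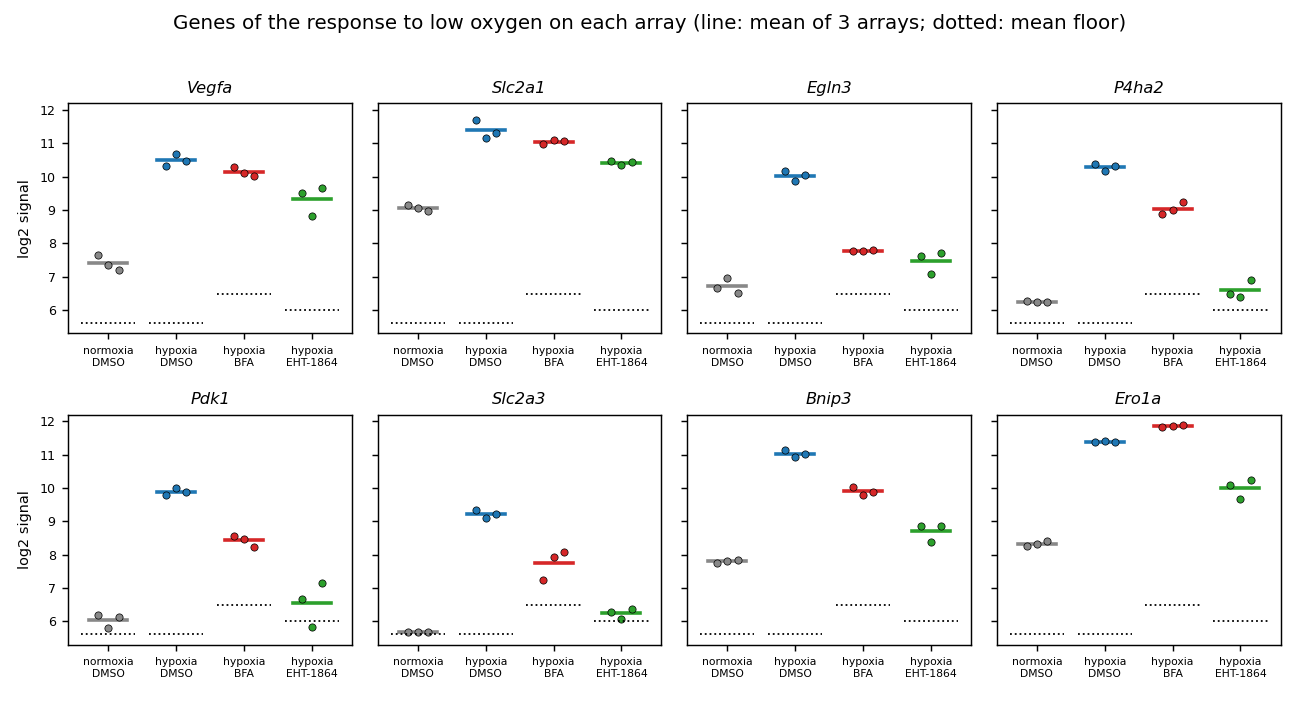
Log2 signal of 8 genes of the response to low oxygen on each of the 12 arrays, by group, with the mean of 3 arrays as a line and the mean floor dotted. The BFA arrays lie between normoxia and hypoxia with DMSO for Egln3, P4ha2, Pdk1, Slc2a3 and Bnip3, close to hypoxia with DMSO for Vegfa and Slc2a1, and above it for Ero1a.

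Hif1a, the oxygen-regulated subunit, read 9.19, 9.25 and 9.20 in normoxia, 9.32, 9.36 and 9.32 in hypoxia with DMSO and 8.0, 8.49 and 8.42 with BFA, and fell by 1.03 (SE 0.13). Of 11 subunits and sensors none (1 without BFA array 3 and 2 without BFA array 1) rose and 6 fell, or 2 and 5 after quantile normalization, including the hydroxylase Egln1 by 1.13 (SE 0.21) and the ubiquitin ligase subunit Vhl by 1.03 (SE 0.15). The HIF inhibitor gene Hif1an and the coactivator competitor Cited2 did not pass, at 0.36 ± 0.16 and 0.20 ± 0.12.

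Among single genes above the floor in both groups, other large rises included Gadd45a, a stress-induced growth arrest gene, which rose by 2.10 (SE 0.14), the noncoding RNA Ipw, by 2.06 (SE 0.13), the adaptor-interacting protein gene Clba1, by 1.98 (SE 0.15), and the reductase Cyb5r1, by 1.98 (SE 0.22). The largest falls besides Olig1, Sdc3 and Olig2 included the synaptic organizer C1ql1, by 3.67 (SE 0.16), Bricd5, by 3.13 (SE 0.16), the hyaluronan link protein Hapln1, by 3.02 (SE 0.10), and Cacng4, an AMPA receptor auxiliary subunit, by 2.86 (SE 0.14). C1ql1 read 11.05, 10.90 and 10.90 with DMSO and 6.96, 7.31 and 7.58 with BFA, and Hapln1 read 11.40, 11.37 and 11.38 and 8.29, 8.48 and 8.33. The remaining falls of the 12 largest were Rlbp1, Gas7, Klhl13 and Anks1b, between −2.96 and −2.76, besides Fabp7.

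Some genes crossed the floor. Ptgs2 (COX-2), the inducible prostaglandin synthase, read 4.66, 4.52 and 4.13 with DMSO and 6.99, 7.06 and 6.85 with BFA, at least 2.56-fold higher, and its difference from EHT-1864 was 0.46 ± 0.18 (adjusted p = 0.0635). The acute phase gene Saa3 was at least 1.96-fold higher, the muscle and bone peptide gene Ostn at least 3.65-fold and the actin regulator Avil at least 2.81-fold. In the other direction Fndc3c1 was at least 3.65-fold lower, Igfbp5, an IGF-binding protein, at least 8.02-fold and the monoglyceride lipase Mgll at least 2.98-fold.

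Compared directly, BFA and EHT-1864 differed at 8108 transcript clusters (adjusted p under 0.05 over all 22206), 3760 of them higher with BFA (16.9%) and 4348 lower (19.6%). No such shares were computed for clusters above the floor alone, so the list counts against EHT-1864 have no background of detected clusters. The floor lay at 5.88 to 6.15 with EHT-1864 and at 6.37 to 6.65 with BFA, and its part in these counts was not tested. In the early secretory pathway 27 of 35 ER chaperones and 24 of 35 N-glycosylation genes were higher with BFA. For Hspa5 the difference was 1.92 ± 0.10, and Fgf21 lay under the floor on all 3 EHT-1864 arrays. The proteasome and ribosomal protein genes went the other way, with 17 of 30 and 8 of 25 lower with BFA and 2 and none higher. The 2 compounds were used at a single dose each, so the differences are between these treatments as given.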

How the data were processed

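Total RNA was labelled with biotin and hybridised to 12 Clarion S mouse arrays, with 4 groups of 3. The authors deposited log2 values, made with RMA in Affymetrix Expression Console per the submitters' processing notes. Software versions, settings and build are not given in the sources used here. The 6640 control features were left out of the tests. The 12 arrays were fitted in 1 group-means model with limma 3.58.1 (R 4.3.3), with Benjamini-Hochberg adjustment over 22206 transcript clusters. The same numbers did not pair the arrays (correlations of deviations −0.05, −0.08 and 0.00), so no block was used. The labels speak of independent cultures of 1 cell line, so p-values measure the spread between these cultures and not between animals.

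Gene symbols came from the platform annotation, updated by Entrez number through RefSeq. A gene with several transcript clusters is given by its brightest. The gene lists and the members described were chosen with earlier results of these data known. Named genes were the 12 largest rises and falls above the floor, the 6 largest that crossed it, up to 4 rises and falls of each list, and a set of fixed genes; 1 of the rises is not reported here. Others were named after their values were seen. Promoter windows are from RefSeq (GRCm38.p6). The fit was tested on simulated data. Alternatives were quantile normalization, median subtraction, filters on dim clusters, trended robust variance, array weights, a fit of the 6 arrays alone, a replicate block and leaving out each array.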

Additional observations from a re-analysis of the deposited data

Results flagged for a closer look

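By the mean of each kind, control features that are no part of the comparison were brighter on the BFA arrays than on any DMSO array of either oxygen level. This held for 5 of 6 kinds. The hybridization spikes averaged 10.93 on the BFA arrays (10.82 to 11.06) against 9.69 to 9.92 on the 6 DMSO arrays. The poly-A spikes averaged 8.22 (8.07 to 8.50) against 7.14 to 8.03, and not every single spike separated the groups. The lys spike (4.84, 4.47 and 6.24 with BFA) and the thr spike (8.69, 9.29 and 8.52) overlapped the DMSO values, which reached 5.47 and 9.12. The dap and phe spikes did not overlap. The ERCC probes, of transcripts that the labels do not say were added, averaged 3.88 (3.70 to 4.03) against 3.42 to 3.56. The neg control features averaged 3.30 (3.24 to 3.36) against 2.89 to 3.04, and the background GC probes averaged 4.23 (4.10 to 4.30) against 3.72 to 3.83. The pos control features were the exception, with 7.74 (7.70 to 7.80) against 7.72 to 7.83. The part of the brighter controls in the results was not tested.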

How the results depend on the processing

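Of 281 genes given with a value that passed the test, 261 kept their call in all 14 alternative settings and none turned. Of 13 genes that did not pass and were followed through the same settings, 11 gained a call in at least 1 of them. Quantile normalization gave 7 of these a call, Canx, Arf5 and Copg1 among them as higher. Fasn and Slc2a1 passed as lower without the dimmest 25%. Quantile normalization ended 16 calls, median subtraction 4 and the replicate block 0, and 9 were lost when 1 array was left out. The counts of 5799 higher and 5470 lower became 5170 and 4327 after quantile normalization, 7017 and 4931 after median subtraction, which raised the share of higher calls from 51.5% to 58.7%, and 4501 and 5591 (44.6% higher) without the dimmest 25%. With only clusters above the floor on at least 3 arrays tested, 2155 rose and 5268 fell (29.0% higher), a filter that removes the dim clusters most of which lay above 0. The replicate block gave 5591 and 5347, trended robust variance 5692 and 5732, array weights 5443 and 5376, and the 6 arrays alone 4858 and 4902. Leaving out 1 array gave 4635 to 5836 higher and 4903 to 5542 lower, with 5072 and 5133 without BFA array 1, which had the narrowest range. Against EHT-1864, 3760 higher and 4348 lower became 3987 and 3979 after quantile normalization, 3610 and 4206 with the block, and 3128 to 3886 and 3772 to 4394 without 1 array; these alternatives were added after seeing the data. Of 142 counts of list members, 51 moved by over 1.5 times after quantile normalization and 3 with the block, and the median of 13 of 71 lists turned after quantile normalization. Dim genes are limited by the floor, which was higher on the BFA arrays. Array number limits precision.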

Other observations

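Cell death genes moved in both directions. Of 21 BCL2 family members and caspases 6 rose and 8 fell (median −0.18, and 0.11 after quantile normalization). The survival factor Bcl2 read 6.66, 6.46 and 6.56 with DMSO and 7.54, 7.37 and 7.20 with BFA, and rose by 0.81 ± 0.14, while its relative Bcl2l1 (BCL-XL) was at least 1.78-fold lower. The BH3-only gene Bik rose by 0.83 (SE 0.18), and Casp2 and Casp6 fell by 1.09 (SE 0.10) and by 0.87 (SE 0.16).

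Of 20 circadian clock genes 3 rose and 10 fell (median −0.41, or 5 rises and 6 falls after quantile normalization). The REV-ERB gene Nr1d2 rose by 1.17 (SE 0.15) and Per1 by 0.66 (SE 0.13), while the output factor Dbp fell by 1.05 (SE 0.22) and the kinase Csnk1e by 1.31 (SE 0.13). The other REV-ERB gene, Nr1d1, rose by 0.59 over DMSO. That call was lost in the fit of the 6 arrays and without DMSO array 3 or BFA array 1 or 3, with an adjusted p of up to 0.104. Nr1d1 was lower with BFA than with EHT-1864 by −3.25 ± 0.20, and read 7.82, 7.06 and 7.48 with BFA and 10.76, 10.81 and 10.52 with EHT-1864. The alpha-arrestin Txnip, a brake on glucose uptake, read 10.07, 9.89 and 9.80 in hypoxia with DMSO, 8.84, 9.35 and 9.18 with BFA and 7.03, 7.38 and 6.87 with EHT-1864, and Arrdc4 was under the floor on the 3 BFA arrays.

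Interferon genes did not move together: of 26, 5 (3 without DMSO array 1 or 3 or BFA array 3) rose and 5 fell, or 3 and 4 after quantile normalization, which turned the median from 0.01 to −0.12, and 16 were under the floor on all 6 arrays. The inhibitor gene Nfkbia of the NF-kB list was under the floor on the 3 BFA arrays, and Tnfaip3 fell by 0.75 (SE 0.20, a call lost after quantile normalization). Of the 2634 transcript clusters without a gene symbol here, 985 rose and 384 fell, and 1671 were under the floor on all 6 arrays.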
